A study of Sus scrofa with 6 samples.

Results

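The regions described here are stretches of pig chromatin in which an accessibility peak was called at embryonic day 28 (E28) in both breeds and at no earlier stage. Peaks of 6 single-cell ATAC-seq libraries were merged into regions wherever they shared 1 bp or more, and a region was taken when it held a peak of E28 ZZ and a peak of E28 DZ and no peak of the 4 libraries of E18 and E21. The members were thus chosen by the peak calls of these libraries, and 6589 of 294825 merged regions (2.23%) met the rule. They covered 3.66 Mb. The number rests on single libraries, and the rule without E28 ZZ, E28 DZ or E21 DZ gave 18381, 10460 and 10644 regions. ZZ are purebred Tibetan pig embryos and DZ are Duroc × Tibetan crosses. E18 and E21 libraries were made from somites and E28 libraries from myotomes, with 1 library for each stage and breed and 5 embryos of 1 sow pooled in each. Stage and tissue therefore changed together at E28 and cannot be told apart, and the spread between litters within a stage and breed was not measured.

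In single-cell ATAC-seq the Tn5 transposase cuts DNA that is not wrapped in nucleosomes, and a barcode marks the cell that a fragment came from. Open stretches lie at promoters, which are often accessible in every cell type, and at enhancers, which lie in introns or between genes and are mostly accessible in the cell types and at the times in which they act. The somite is the block of embryonic mesoderm that gives rise to trunk muscle, cartilage of the axial skeleton, dermis and tendon, and the myotome is its muscle-forming layer. Transcription factors bind short letter patterns in open stretches, among them the E-box of the myogenic MYOD family, the TTGGCA element of nuclear factor I (NFI) proteins and the TGTGGTT element of RUNX proteins.

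These 8 stretches are shown first as examples, and the shares given below do not rest on them. Each is the central 300 bp of an intronic or distal E28-only region, read 5′ to 3′ on the plus strand of the RefSeq Sscrofa11.1 assembly. They were picked after their letters were seen, from 36 stretches of regions taken by openness or by level in a cluster, of which 14 hold none of the elements marked here. The regions near TGFBR2, LOC100739087, SLC35F1 and THSD7B were among the 10 most widely open. Those near CPA6 and FRMPD1 had their highest level in the myogenic-like cells described below, the BACH2 region in fibroblast-like cells and the DTNBP1 region in endothelial-like cells. Capitals mark every match, on either strand, to CAGCTG (an E-box), to TTGGCA (the short NFI element), to the longer NFI palindrome and to TGTGGTT (RUNX).
TGFBR2 region, chr13:16887789-16888088: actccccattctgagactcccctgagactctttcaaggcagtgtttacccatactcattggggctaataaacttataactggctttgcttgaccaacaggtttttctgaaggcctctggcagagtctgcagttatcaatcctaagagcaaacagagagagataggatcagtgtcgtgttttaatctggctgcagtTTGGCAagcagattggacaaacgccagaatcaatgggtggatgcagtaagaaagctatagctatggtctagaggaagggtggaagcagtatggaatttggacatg
LOC100739087 region, chr1:56808722-56809021: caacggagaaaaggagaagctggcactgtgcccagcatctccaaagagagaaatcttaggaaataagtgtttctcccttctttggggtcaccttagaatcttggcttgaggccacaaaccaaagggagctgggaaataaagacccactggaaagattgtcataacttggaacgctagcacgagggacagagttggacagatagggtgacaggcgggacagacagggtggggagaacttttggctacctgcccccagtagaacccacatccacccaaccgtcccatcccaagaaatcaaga
SLC35F1 region, chr1:43802021-43802320: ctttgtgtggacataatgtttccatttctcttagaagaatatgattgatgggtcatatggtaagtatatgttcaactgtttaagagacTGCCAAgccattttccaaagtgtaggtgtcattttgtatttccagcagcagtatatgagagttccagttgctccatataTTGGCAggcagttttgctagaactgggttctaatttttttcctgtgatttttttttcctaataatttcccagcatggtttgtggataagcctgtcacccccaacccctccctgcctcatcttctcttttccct
THSD7B region, chr15:15458149-15458448: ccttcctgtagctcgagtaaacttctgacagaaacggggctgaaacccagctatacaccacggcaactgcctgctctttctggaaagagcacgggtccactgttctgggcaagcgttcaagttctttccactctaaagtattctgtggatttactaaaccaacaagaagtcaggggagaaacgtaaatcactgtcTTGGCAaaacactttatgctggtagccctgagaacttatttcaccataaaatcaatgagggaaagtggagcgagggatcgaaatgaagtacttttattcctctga
CPA6 region, chr4:67147647-67147946: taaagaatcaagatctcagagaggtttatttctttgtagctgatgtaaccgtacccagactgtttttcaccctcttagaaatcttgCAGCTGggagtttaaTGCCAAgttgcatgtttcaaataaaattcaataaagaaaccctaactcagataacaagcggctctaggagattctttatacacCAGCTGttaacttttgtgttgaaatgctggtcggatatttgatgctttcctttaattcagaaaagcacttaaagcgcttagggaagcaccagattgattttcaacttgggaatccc
FRMPD1 region, chr1:238367851-238368150: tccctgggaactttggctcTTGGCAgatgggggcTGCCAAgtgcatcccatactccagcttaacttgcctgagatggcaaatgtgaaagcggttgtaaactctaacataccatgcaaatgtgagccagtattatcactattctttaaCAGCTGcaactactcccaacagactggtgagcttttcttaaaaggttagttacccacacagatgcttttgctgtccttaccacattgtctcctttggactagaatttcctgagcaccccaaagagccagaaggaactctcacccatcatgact
BACH2 region, chr1:58119372-58119671: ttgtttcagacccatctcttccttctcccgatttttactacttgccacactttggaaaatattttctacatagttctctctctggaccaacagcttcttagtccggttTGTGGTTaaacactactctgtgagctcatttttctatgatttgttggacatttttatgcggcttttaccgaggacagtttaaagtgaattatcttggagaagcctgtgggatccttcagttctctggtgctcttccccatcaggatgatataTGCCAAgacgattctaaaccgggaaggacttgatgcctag
DTNBP1 region, chr7:11662025-11662324: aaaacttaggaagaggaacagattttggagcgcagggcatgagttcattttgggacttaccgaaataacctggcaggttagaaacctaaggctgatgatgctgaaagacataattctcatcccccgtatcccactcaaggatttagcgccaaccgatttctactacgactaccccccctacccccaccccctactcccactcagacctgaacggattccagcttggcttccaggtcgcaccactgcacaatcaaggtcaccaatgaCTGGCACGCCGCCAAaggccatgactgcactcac

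The LOC100739087 stretch held none of the marked elements. The TGFBR2 and THSD7B stretches held 1 short NFI element each and the SLC35F1 stretch 2, on opposite strands. Letters that the assembly masks as repeat made 59.0% of the SLC35F1 stretch, and the print does not show them. At the median such letters made 11.0% of E28-only windows and 9.0% of all merged windows. The CPA6 stretch held 2 CAGCTG E-boxes and 1 short NFI element, and the FRMPD1 stretch held 1 such E-box and 2 NFI elements. The BACH2 stretch held 1 NFI element and 1 RUNX element, and the DTNBP1 stretch held 1 NFI palindrome. A match gives the letters in the window and not a bound factor.

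Kept barcodes numbered from 9286 to 11243 in the libraries, and their total counts of Tn5 cut sites in peaks were lowest at E28, with 89816504 in ZZ and 98654857 in DZ. Called peaks numbered 131975 in E28 ZZ and 137769 in E28 DZ and from 171898 to 217138 in the other 4 libraries. Between 135 and 189 barcode sequences occurred in both libraries of any pair, and 166 in the E28 pair. A region without a called peak has no count in the deposited files, so the level of an E28-only region at E18 or E21 is not known.

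E28-only regions that shared no base with an earlier peak lay away from genes' starts and from exons. Of the 6589, 3204 (48.6%) were intronic and 2851 (43.3%) distal, which together made 91.9%, against 83.1% of all merged regions and fewer still of the 78533 regions with a peak in all 6 libraries, called shared regions below. Introns here are those of all RefSeq genes, coding or not. With protein-coding genes only, 2601 (39.5%) were intronic and 3570 (54.2%) distal, so which class was larger depended on the genes used. The other classes of region were not counted in that way. Exons were overlapped by 347 (5.27%), against 12.1% of all merged and 25.8% of shared regions. Promoters, taken as the 2 kb before a start, held 94 (1.43%), against 3.05% and 5.54%. The 5′ UTRs held 23 and the 3′ UTRs 70. The placement depended on how peaks were matched. With a reciprocal overlap of 50%, which admits regions that an earlier peak overlaps in part, 12559 regions met the rule, with 46.9% intronic, 38.1% distal, 9.40% at exons, 3.51% at promoters and a median distance of 48127 bp to a protein-coding start, and these values lay near those of all merged regions. The 6505 regions with peaks in both E21 libraries alone were placed in much the same way, with 51.3% in introns and 42.1% distal, while the 37531 regions of E18 alone had 39.1% distal and 2.41% at promoters.

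The median distance from the middle of an E28-only region to the nearest start of a protein-coding gene was 75811 bp, with quartiles of 26137 and 198241 bp. It was 46227 bp for all merged regions, 26358 bp for shared regions, 46833 bp for E18-only regions and 88995 bp for E21-only regions. To the starts of all RefSeq genes the medians were 49726 bp for E28-only, 31780 bp for all merged, 18412 bp for shared, 32542 bp for E18-only and 55262 bp for E21-only regions. Within 2 kb of a start lay 1.67% of E28-only regions, against 7.16% of all merged and 19% of shared regions. Over 100 kb away lay 42.9%, against 31.9% of all merged regions, and 480 lay over 500 kb away. Regions are not replicates, so these shares carry no test.

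**Figure D1:**
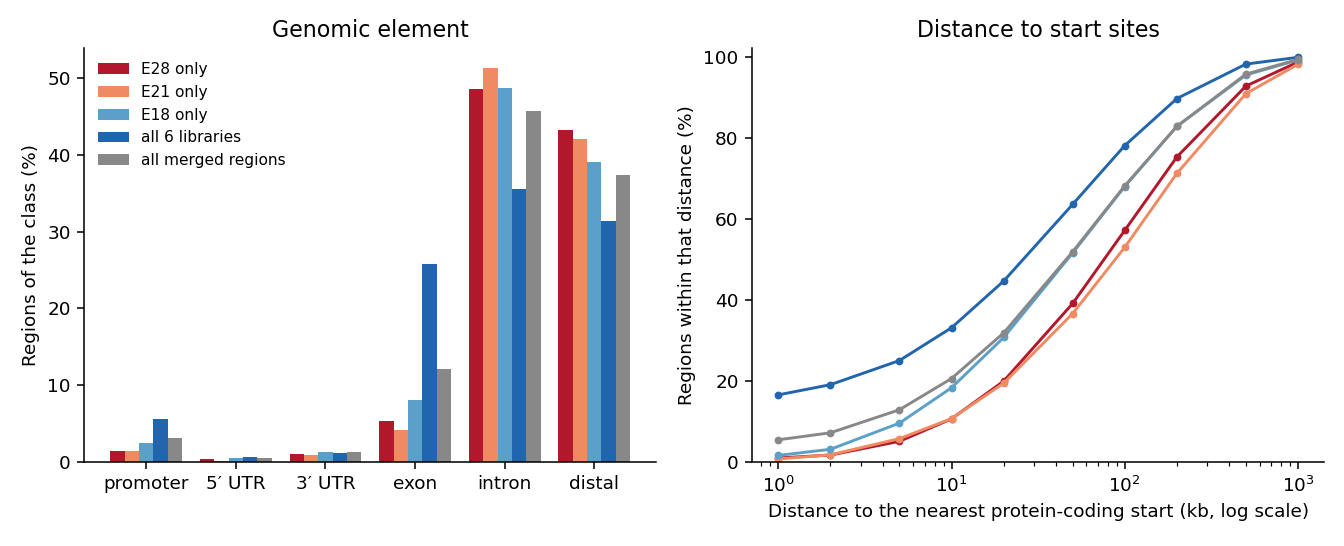
Genomic element (left, percent of the regions of each class) and distance to the nearest protein-coding start (right, kb on a log scale against the percent of regions within it), for regions with peaks at E28 only, E21 only, E18 only, in all 6 libraries and for all merged regions. Counted with all RefSeq genes, E28-only regions have 48.6% in introns and 43.3% distal and only 5.27% at exons. With protein-coding genes only they have 39.5% in introns and 54.2% distal (not drawn). Their distance curve runs beside that of E21-only regions and below that of shared regions at every distance up to 500 kb.

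E28-only regions had a median width of 498 bp, with quartiles of 392 and 663 bp. The median was 555 bp for all merged regions, 1366 bp for shared regions, 443 bp for E18-only and 401 bp for E21-only regions. The narrowest spanned 13 bp and the widest 3097 bp. In the central 300 bp the median GC content was 41.7%, against 47.7% in all merged regions, 51.7% in shared regions, 48.7% in E18-only and 43.0% in E21-only regions, and 88.1% of the E28-only windows had under 50% GC. The ratio of observed to expected CpG was 0.201 at the median, against 0.337 in shared and 0.253 in all merged regions. It was 0.214 in E18-only and 0.216 in E21-only regions, close to that of E28-only regions.

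Each E28-only region had a count in a small minority of kept barcodes, which are called open there. A barcode without a count was not shown to be closed. The share of kept barcodes with at least 1 count had a median of 0.765% in ZZ, which is 72 of 9410 barcodes, and of 1.12% in DZ, which is 106 of 9450. Shared regions had medians of 2.24% and 2.34% in the same libraries. They were also wider, with a median of 1366 bp against 498 bp, and the shares were not scaled by width. In their own libraries E21-only regions had 0.571% in ZZ and 0.514% in DZ, and E18-only regions had 0.578% and 0.625%. A share over 1% was reached by 2081 regions in ZZ and 3756 in DZ, and a share over 5% by 6 and 107. All E28-only regions together held 1.14% of the kept counts in ZZ and 1.79% in DZ. At the low end, 46 regions in ZZ and 19 in DZ had no count in a kept barcode, although a peak had been called there. In 778 regions the peaks of at least 1 library covered under 100 bp, and such regions rest on little sequence. These levels are values of the libraries that chose the members and are given as a description. In a whole library, fewer cells of a type and less accessibility per cell cannot be told apart.

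DZ had the higher level at most of these regions. The median log2 ratio of DZ to ZZ, on counts per 1e6 kept counts (CPM) with a pseudocount of 0.1, was 0.54. Of the members, 2240 (34.0%) were over 2 times higher in DZ and 544 (8.26%) in ZZ. Over shared regions the median log2 ratio was -0.06, with 6.43% over 2 times higher in DZ and 8.52% in ZZ. The share higher in ZZ was thus near that of shared regions. The peaks of DZ covered 470 bp of a region at the median and those of ZZ 357 bp, and the ratio of levels followed that of covered lengths across regions (Pearson r = 0.910 on the log2 scale), both of which come from the same peak calls. Among the 3287 regions whose covered lengths were within 1.5 times of each other, the median log2 ratio was 0.17. Of these, 182 (5.54%) were over 2 times higher in DZ and 32 (0.974%) in ZZ. Across these 3287 regions the log2 CPM of both libraries had a Pearson correlation of 0.838, against 0.403 across all 6589 and 0.891 across shared regions. With 1 library per breed at E28 the breeds were not tested.

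**Figure D2:**
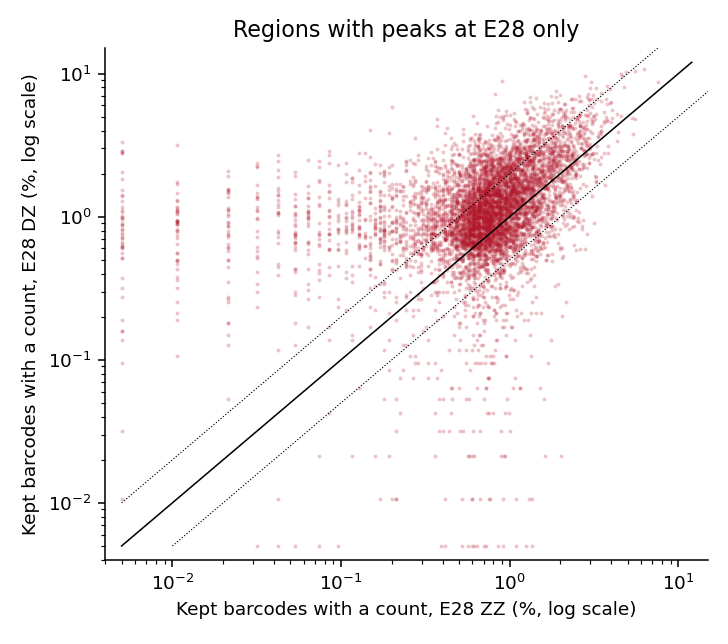
Percent of kept barcodes with a count in each E28-only region in E28 ZZ (x axis, log scale) and E28 DZ (y axis, log scale). Each point is a region, the solid line marks equal shares, the dotted lines a 2-fold difference, and shares of 0 are drawn at the left or lower edge. The cloud centres near 0.765% in ZZ and 1.12% in DZ, and the arms to the left and below hold regions in which the peak of a library covered little of the region.

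By the lower of the shares in both libraries, the most widely open region lay 103569 bp from the start of TGFBR2, the type II receptor for transforming growth factor beta, at chr13:16887055-16888822. It was distal, 1768 bp wide and open in 708 barcodes of ZZ (7.52%, 95% Wilson interval 7.01 to 8.07%) and 824 of DZ (8.72%, 8.17 to 9.31%). The intervals of all shares cover counting error only. An intronic region of LOC110256959 on chromosome 1, nearest to LOC100739087, was open in 6.25% of ZZ and 10.7% of DZ barcodes. An intronic region of SLC35F1, a solute carrier gene, followed with 5.55% and 10.4%. These 3 regions were wide, at 1768, 1692 and 1682 bp.

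The other 7 of the 10 most widely open regions had between 4.55% and 5.50% of barcodes open in ZZ and between 4.83% and 10.3% in DZ. A region in an intron of THSD7B, which encodes a thrombospondin domain protein, had 5.50% and 4.83%. A region in an intron of LOC110257242, nearest to TIMD4, a receptor for phosphatidylserine on dying cells, had 5.28% and 4.88%. Both regions were at least as open in ZZ as in DZ, and the other 8 were higher in DZ. The distal regions nearest to PDCD6IP, NNT and ADGRD1 differed most, with 4.89%, 4.65% and 4.55% in ZZ against 10.3%, 9.67% and 9.92% in DZ. The distal region nearest to NCAM1, a cell adhesion molecule of muscle and nerve, had 4.57% and 5.02%. The exon region of ATG13, an autophagy gene, was the only exonic region of the 10, with 4.79% and 8.06%. Of all E28-only regions, 299 were over 2% and 13 over 4% in both libraries.

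Most members did not lie at the edge of an earlier peak. The gap to the nearest peak of another stage had a median of 2674 bp and ran from 3 to 317754 bp, with 95 members (1.44%) within 100 bp, 1449 (22.0%) within 1 kb and 877 (13.3%) over 10 kb away. The smallest gaps were those of regions near TMEM155 (3 bp), ZNF503 and OPCML (5 bp each) and CAMK1D and CAMTA1 (6 bp each). Their shares were 0.701%, 0.850%, 0.723%, 0.106% and 0.744% in ZZ and 0.0529%, 2.10%, 0.783%, 0.561% and 1.07% in DZ. An overlap of 1 bp with an earlier peak kept out regions near PDCD6IP, NLGN1, NRG1, RRBP1 and PRELID2, whose shares ran from 0.0850% to 2.88% in ZZ and from 0.127% to 5.07% in DZ. In all, 890 regions with peaks of both E28 libraries were kept out by an overlap of 100 bp or less, and their median shares were 0.691% in ZZ and 0.878% in DZ.

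Members spread over all chromosomes. Leaving aside Y, which had 2, their density ran from 1.56 per Mb on X to 3.89 per Mb on chromosome 10, and their share of all merged regions ran from 1.49% on chromosome 12 to 3.03% on X. The median distance between neighbouring members was 206521 bp, and 5.74% of neighbouring pairs lay within 10 kb, against 4.35% for E21-only regions. A 1-Mb window with a member held 3 at the median, and 15 windows held 10 or more. The fullest windows, each with 13 members, were on chromosome 18 by INHBA, which encodes an activin subunit, with SUGCT, and on chromosome 8 by SPRY1, an inhibitor of growth factor receptor signalling.

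The nearest protein-coding starts belonged to 3664 genes, which is 20.5% of the 17898 genes nearest to any merged region. Of these genes, 2250 were nearest to a single member and 683 to at least 3. The most members were nearest to ADGRL2, an adhesion receptor of the latrophilin family. It had 13, of which 12 were distal, at a median distance of 295116 bp, out of 247 merged regions nearest to it. NEBL, whose product nebulette binds actin at the Z-disc, had 12 of 148. DLG2, a synaptic scaffold gene 1971 kb long, had 12 of 224, and all 12 lay in its introns. CTNNA2, a neural alpha-catenin gene, had 12, which was 7.19% of its regions. CDH8, a cadherin gene, and KCNMA1, a calcium-activated potassium channel gene, had 11 each. PIK3C3, a phosphatidylinositol kinase gene of autophagy, and SLC10A2, a bile acid transporter gene, had 10 each, at median distances of 719424 and 280109.5 bp. ROBO1, a receptor for the guidance cue Slit, had 9 of 255. AEBP2, a partner of Polycomb repressive complex 2, had 9 of only 61 regions (14.8%), the highest proportion among these 10 genes, with 2 E18-only and no E21-only region. These genes had from 61 to 255 merged regions nearest to them. Whether a count of members follows that number was not tested.

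Gene lists were read against the share of 2.23% that members made of all merged regions. A region is called the widest open of a list or gene by the lower of its shares in both libraries. The regions nearest to fibroblast and matrix genes were members in 53 of 1685 cases (3.15%), and 21 of 36 annotated genes had at least 1. TNC, which encodes the matrix protein tenascin C, had 8, and FBN2 and VCAN, encoding fibrillin 2 and versican, had 5 each. The widest open were a distal region near PDGFRA, the receptor for platelet-derived growth factor on mesenchymal cells (2.76% in ZZ, 3.81% in DZ), an intronic region of OSR1, a factor of connective tissue precursors (2.23% and 2.51%), and a region near COL6A3, a collagen gene (2.26% and 2.21%). The proportions of E21-only and E18-only regions at the same genes were 2.31% and 11.4%, against 2.21% and 12.7% over all merged regions.

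Genes of the TGF-beta and BMP pathway had 63 members among 1949 regions (3.23%), near 22 of 38 genes. Beside the TGFBR2 region described above, the widest open were an intronic region of TGFB2, a ligand of that receptor (3.49% in ZZ, 7.27% in DZ), and a region nearest to ID4, an inhibitor of basic helix-loop-helix factors (2.18% and 3.43%). TGFBR2 itself had 7 members among 155 regions. Genes of the NFI and FOXP families of transcription factors had 18 members among 556 regions (3.24%), near 4 of 8 genes. NFIA had 6 and NFIB 5, and the regions with the highest share reached by both libraries had 1.59% in ZZ and 1.61% in DZ near NFIA and 1.02% and 1.03% near NFIB. FOXP2 had 3, the widest open with 1.07% and 1.23%.

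Muscle genes did not stand out by number. Muscle regulators had 31 members among 1566 regions (1.98%), near 12 of 38 genes, and sarcomere and excitation-contraction genes 13 among 594 (2.19%), near 9 of 44. No member was nearest to PAX3, PAX7, MYF5, MYOD1, MYOG or MYF6, the regulators that specify muscle precursors and drive their differentiation. These genes were named after their values were seen. How many merged regions lay nearest to them is not given, so the absence cannot be read against the share over all merged regions. EYA4, a transcriptional coactivator and phosphatase, had 7 members, the widest open in 2.33% of ZZ and 5.72% of DZ barcodes. EYA2, of the same family, had 2 members, the wider open by the lower of its shares with 2.16% in both libraries and the other with 1.09% in ZZ and 2.25% in DZ. DMD, the dystrophin gene, and TTN, the titin gene, had 3 members each, the widest open with 1.89% and 1.41% in ZZ and 1.78% and 1.42% in DZ, and RYR3, a calcium release channel gene, had 1. Fusion and neuromuscular junction genes had 12 among 467 (2.57%), of which 8 were nearest to NRG1, the neuregulin gene.

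Cartilage and sclerotome genes had 36 members among 1309 regions (2.75%), near 16 of 26 genes. The widest open overlapped an exon of COL9A1, a cartilage collagen gene, with 2.66% in ZZ and 3.29% in DZ, and TRPS1, a factor of cartilage growth, had 8. Tendon genes had 6 among 241 (2.49%), of which 3 were near THBS2 and the others near CHODL, MKX and THBS4. The IGF and insulin axis had 28 among 1090 (2.57%), of which 8 were near PIK3R1 and 5 near IRS2, and the region near IRS2 was open in 1.60% of ZZ and 5.27% of DZ barcodes. WNT pathway genes had 39 among 1879 (2.08%). The widest open were nearest to the antagonists SFRP2 (3.12% and 2.77%) and SFRP1 (1.96% and 1.49%) and to the receptor FZD9 (2.03% and 2.90%).

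Lists of other cell types varied likewise. Endothelial genes had 15 members among 672 regions (2.23%), with shares of 1.55% and 1.41% near EMCN. Neuron and axon guidance genes had 76 among 3051 (2.49%), near 21 of 32 genes, and the widest open lay near SEMA3D, a secreted guidance cue (3.46% and 6.46%). Immune and blood genes had 9 among 234 (3.85%), of which 5 were near RUNX1, a gene that the muscle list holds as well. Pluripotency and early embryo genes had 7 among 234 (2.99%). Neural progenitor and crest genes had the lowest non-zero proportion, with 4 among 413 (0.969%), against 2.91% E21-only regions. The HOX clusters, which encode factors of position along the body axis, had 0 members among 110 regions nearest to 23 of the 39 HOX genes of the list, and 5 E18-only regions. None of these proportions was tested.

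To ask in which cells the regions were open, kept E28 barcodes were clustered on shared regions of odd-numbered autosomes, so that no member took part, and clusters were named from marker genes. Of the marker genes' windows, 10 members lay inside. Myogenic-like cells, with 11 of 12 myogenic markers raised, numbered 1381 (14.7%) in ZZ and 2110 (22.3%) in DZ, so most kept barcodes of the tissue labelled myotome fell in other clusters. Cartilage or sclerotome-like cells (4 of 10 markers) numbered 2780 and 2323, fibroblast or mesenchyme-like cells (4 of 12) 2634 and 764, neural crest or Schwann-like cells (3 of 6) 256 and 401, and endothelial-like cells (6 of 9) 203 and 141. The 4 markers raised in the cartilage or sclerotome-like cluster were COL2A1, ACAN, MATN4 and COL9A1. The listed factors PAX1, PAX9, NKX3-2, SOX9, FOXC2 and UNCX did not reach the limits in this clustering. The neural crest or Schwann-like cluster also raised 2 of 6 neuron markers, STMN2 and NEUROD1, so it may hold neurons as well. Finer clustering (resolution 1.0) named a neuron-like cluster of 126 and 293 cells and a neural crest or Schwann-like cluster of 128 and 109. Unnamed cluster 1 held 1153 and 3288 cells and unnamed cluster 4 held 1003 and 423, and neither raised 3 markers of any list. Cluster 1 and the fibroblast or mesenchyme-like cluster thus differed in size between the libraries.

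Counts in members made up the smallest part of the counts in myogenic-like, neural crest or Schwann-like and endothelial-like cells. Of each 1e6 peak counts, 13004 in ZZ and 21326 in DZ lay in members in cartilage or sclerotome-like cells, 12282 and 23056 in fibroblast or mesenchyme-like cells and 16564 and 23064 in unnamed cluster 1. Unnamed cluster 4 had 10658 and 17909. Myogenic-like cells had 6872 and 8947, neural crest or Schwann-like cells 3136 and 5104 and endothelial-like cells 2683 and 3975. The order of the 3 lowest clusters was the same in both libraries. Since peaks had been called on all barcodes of a library together, the level of a cluster also depends on which cells gave a peak.

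A leading cluster was assigned to a region where the same cluster had the highest CPM in both libraries. Of the 5937 members with at least 20 counts in each library, 4035 (68.0%) had such a leader. Unnamed cluster 1 led 1123 (27.8%), cartilage or sclerotome-like cells 1041 (25.8%), fibroblast or mesenchyme-like cells 752 (18.6%), myogenic-like cells 617 (15.3%) and unnamed cluster 4 led 415 (10.3%). Endothelial-like cells led 46 (1.14%) and neural crest or Schwann-like cells 41 (1.02%). Among shared regions with a leader the same clusters led 10.7%, 9.48%, 8.91%, 21.9%, 6.71%, 23.8% and 18.5%. Shared regions were wider and less often intronic or distal (67.0% against 91.9%), and the shares were not matched for this. Under endothelial-like cells shared regions had a median distance of 6826 bp to a start and 58.3% GC. Members led by endothelial-like cells had 34087 bp and 46.3%. The shares of members depended on how finely the cells were clustered. At resolution 1.0 cartilage or sclerotome-like cells led 325 of 3103 members (10.5%). Myogenic-like and fibroblast or mesenchyme-like cells, each pooled from several clusters there, led 15.6% and 15.3%, and the unnamed clusters, counted singly, led up to 13.3%. Epithelial-like cells, a name given only at that resolution, led 284 (9.15%), and neuron-like cells led 21 (0.677%). At resolution 0.6 cartilage or sclerotome-like cells, pooled over the clusters of that name, led 25.6%. The unnamed clusters, counted singly, led 19.6%, 12.2% and 10.7%. Members led by fibroblast or mesenchyme-like cells lay farthest from starts, at a median of 98792.5 bp, and those led by myogenic-like cells at 59752 bp. Shared regions led by these clusters differed in the same direction, with 64842 and 40193 bp.

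Some regions were almost confined to a cluster, while the most open were shared by several. Levels in this paragraph are CPM within a cluster, in ZZ and then DZ. The TGFBR2 region had 57.0 and 118 in fibroblast or mesenchyme-like cells, 16.7 and 33.7 in unnamed cluster 1 and between 2.14 and 7.57 in every other cluster. The THSD7B region had 30.9 and 29.5 in cartilage or sclerotome-like cells, 11.7 and 20.5 in unnamed cluster 4 and 2.43 and 1.23 in myogenic-like cells. An intronic region of MPPED2 had 27.4 and 37.5 in cartilage or sclerotome-like cells, and a region of LNX1, a ubiquitin ligase gene, 20.3 and 34.6. In myogenic-like cells the CPA6 region had 18.9 and 18.6, the SEL1L region 18.0 and 21.4 and the FRMPD1 region, 3310 bp from its start, 15.7 and 15.0. Levels of the MPPED2, LNX1, CPA6 and SEL1L regions in other clusters are not given here, so these are not called confined. The FRMPD1 region stood at 1.62 or lower in every other cluster of either library. The BACH2 region, in an intron of a transcription repressor gene, had 21.3 and 19.3 in fibroblast or mesenchyme-like cells and at most 4.44 elsewhere.

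Rare cells led few members, with contrasts of varied size. The FBXO28 region had 27.3 and 31.0 CPM in endothelial-like cells and at most 0.711 in any other cluster, although only 0.478% of ZZ and 0.529% of DZ barcodes were open there. The DTNBP1 region had 16.9 and 21.9 in endothelial-like cells, with 4.88 and 5.01 in fibroblast or mesenchyme-like cells, and a region 14587 bp from the start of S1PR1, a lipid receptor of vessels, had 13.4 and 15.5, with 6.27 and 8.04 in unnamed cluster 1. In neural crest or Schwann-like cells a region at the start of EPHB6, a receptor of the ephrin family, had 10.3 and 22.6, with 4.42 and 6.73 in myogenic-like cells, and a region near ASIP, whose product blocks the pigment cell receptor MC1R, had 8.17 and 11.4, with 2.51 and 5.71 in cartilage or sclerotome-like cells. In unnamed cluster 4 the PDCD6IP region had 23.1 and 43.5, with 18.8 and 36.9 in unnamed cluster 1 and 12.6 and 37.8 in fibroblast or mesenchyme-like cells beside it. Unnamed cluster 1 led the regions near RNASEH2B (35.3 and 37.2) and LOC100627129 (36.2 and 28.8). Fibroblast or mesenchyme-like cells had 5.09 and 17.0 at the former and 11.5 and 15.0 at the latter.

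**Figure D3:**
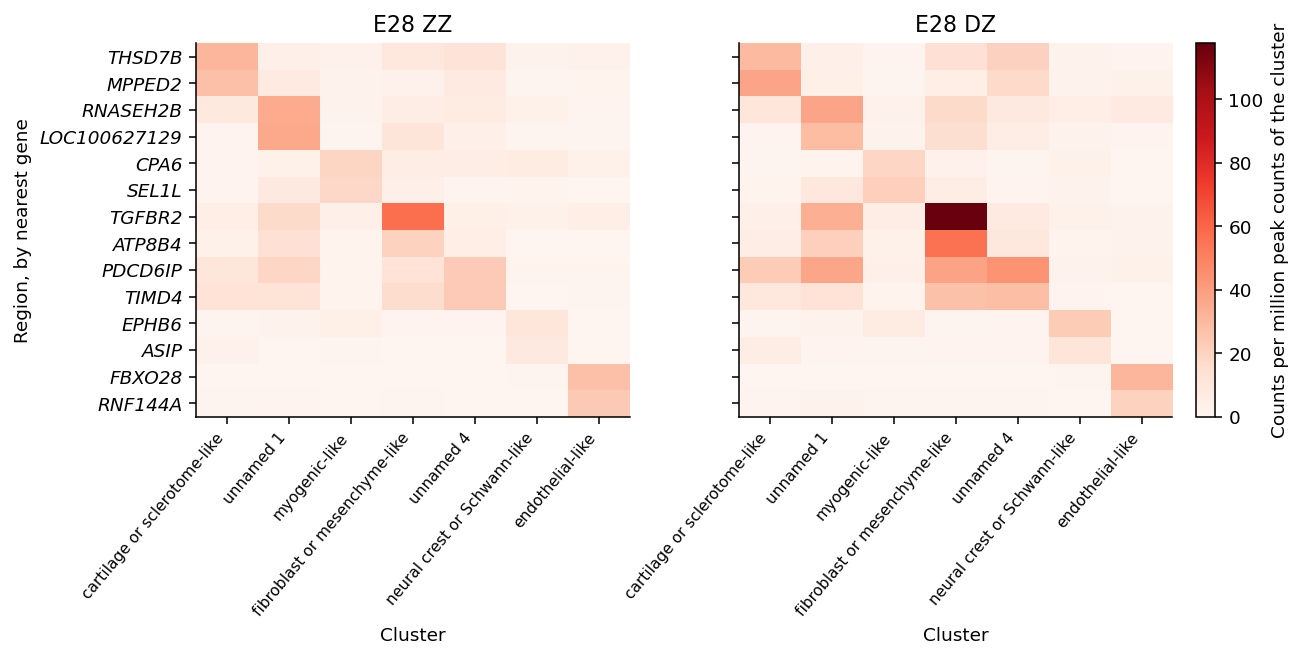
Level in each E28 cluster (columns) of the 2 members with the highest level for each leading cluster (rows, by nearest gene), in E28 ZZ (left) and E28 DZ (right), as counts per 1e6 peak counts of the cluster. The TGFBR2 region in fibroblast or mesenchyme-like cells is the highest value, with 57.0 and 118, and the FBXO28 and RNF144A regions stand out in endothelial-like cells.

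The letters at the centres of the members differed from those of other regions. The short NFI element TTGGCA occurred in 27.4% of the 6589 windows of 300 bp, against 16.5% of all merged, 14.8% of shared, 15.5% of E18-only and 16.1% of E21-only windows. The longer NFI palindrome, which can contain the short element, occurred in 94 windows (1.43%), against 0.458% of all merged, 0.414% of shared, 0.155% of E18-only and 0.630% of E21-only windows. The RUNX element TGTGGTT occurred in 9.82%, against 6.27% of all merged, 5.39% of shared, 5.61% of E18-only and 6.67% of E21-only windows. Both strands were searched. The nuclear receptor element AGGTCA went the other way, with 10.5% of members against 21.7% of all merged, 16.8% of shared, 23.0% of E21-only and 32.7% of E18-only windows. The homeobox core TAATTA occurred in 5.52%, close to the 5.56% of shared windows, against 7.03% of all merged, 10.2% of E21-only and 7.99% of E18-only windows. The motif of CTCF, which marks insulators and loop ends, occurred in 6 windows (0.0911%), against 1.53% of all merged, 3.59% of shared and 1.02% of E18-only windows, and in 9 E21-only windows (0.138%).

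Base composition bears on such shares, so they were also taken among windows of 40 to 50% GC, of which 3388 were members and 131980 were of all merged regions. There the short NFI element stood at 28.6% against 18.1%, the palindrome at 1.51% against 0.426%, RUNX at 10.1% against 7.32%, AGGTCA at 10.8% against 22.7% and TAATTA at 4.10% against 8.29%. The CTCF motif stood at 0.118% against 1.21% and the AP-1 element TGANTCA at 10.1% against 14.6%. By contrast, the MEF2 motif stood at 5.90% of all member windows against 3.65%, but at 3.87% against 3.84% within these limits. The GC-rich KLF and SP element GGGCGG stood at 3.75% against 13.2%, and at 3.72% against 4.20% within them. The GATA element AGATAA stood at 15.1% against 15.2%, and at 13.9% against 18.6% within them. For the NFI, RUNX, AGGTCA and TAATTA elements the difference from all merged regions was seen with either set of windows.

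**Figure D4:**
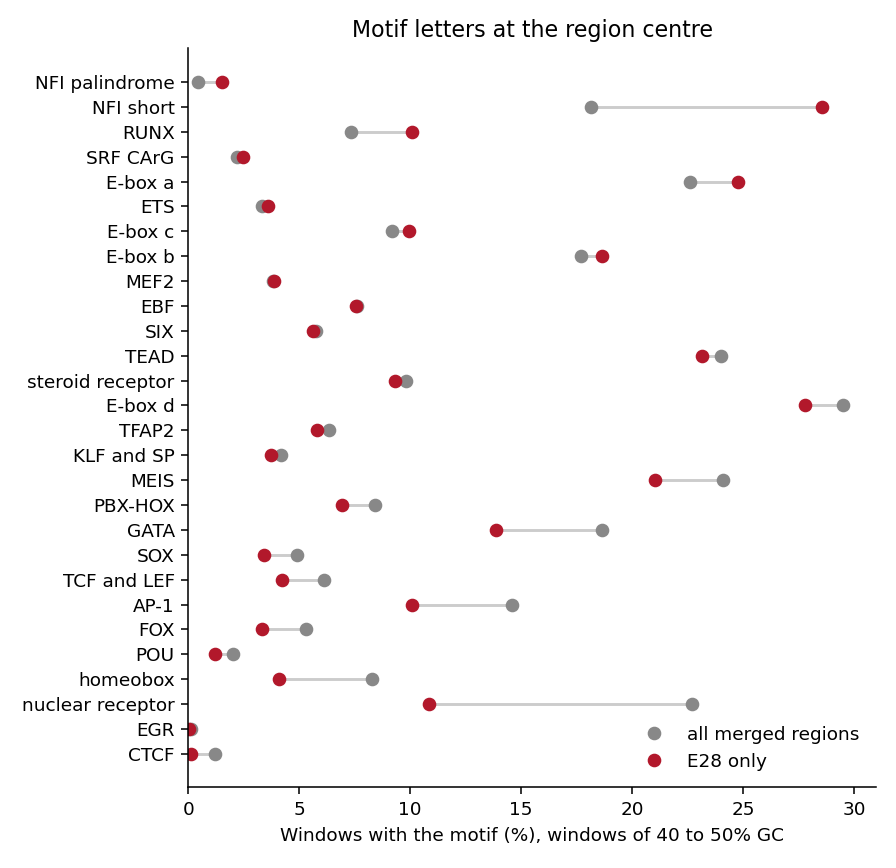
Percent of 300 bp windows of 40 to 50% GC that hold each of 28 motifs (x axis), for E28-only regions and all merged regions, ordered from the highest to the lowest ratio between them. E-box a is CAGCTG, b to d are other E-box forms, NFI short is TTGGCA, and the largest gaps are those of that element (28.6% against 18.1%) and of the nuclear receptor element (10.8% against 22.7%).

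Motif content differed by leading cluster. The E-box CAGCTG, of the kind bound by MYOD and its relatives, stood in 402 of the 617 members led by myogenic-like cells (65.2%), against 45.0% of the shared regions led by the same cells and 22.2% of all members. The other clusters that led over 100 members had between 12.9% and 17.9%. Among windows of 40 to 50% GC the share was 70.3% of 323 members led by myogenic-like cells. The CPA6 and FRMPD1 stretches printed above carry that E-box, and the SEL1L region does not. The short NFI element was most common in members led by cartilage or sclerotome-like cells, in 404 of 1041 (38.8%), with 29.3% under fibroblast or mesenchyme-like cells, 29.4% under unnamed cluster 4, 25.3% under myogenic-like cells and 20.7% under unnamed cluster 1. Shared regions led by the same clusters had 20.4%, 17.6%, 12.9%, 16.3% and 14.8%, so windows of members held the element more often under each. Shared regions are wider (median 1366 bp against 498 bp), so the 300 bp window spans less of them. They were also less often intronic or distal (67.0% against 91.9%). The same limits hold for the E-box above and for the elements in the next paragraph.

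The RUNX element stood in 14.6% of members led by cartilage or sclerotome-like cells and 15.2% of those led by fibroblast or mesenchyme-like cells, against 6.16% under myogenic-like cells and 5.88% under unnamed cluster 1. Shared regions led by the same clusters had 7.92%, 7.90%, 5.34% and 5.31%. The PBX-HOX element TGATTNAT (15.2%) and the GATA element (22.3%) were most frequent under fibroblast or mesenchyme-like cells among the clusters that led over 100 members, and the homeobox core under unnamed cluster 4 (11.3%). Shared regions led by these cells had 10.1%, 18.2% and 7.22%. For unnamed cluster 4 the median GC was 39.7% in members and 53.3% in those shared regions. Among member windows of 40 to 50% GC the homeobox core stood at 7.78% under that cluster, beside 8.29% of all merged windows. PBX-HOX and GATA stood there at 14.6% and 21.6% under fibroblast or mesenchyme-like cells, beside 8.43% and 18.6%. The MEIS element TGACAG was most frequent under myogenic-like cells, at 29.5% of members and 26.0% of shared regions. Among member windows of 40 to 50% GC its shares lay close together. They were 27.2% under myogenic-like cells, 26.7% under unnamed cluster 4 and 25.4% under fibroblast or mesenchyme-like cells, beside 24.1% of all merged windows. Clusters were formed without the members, but 39712 of the 78533 shared regions took part in forming them. On even-numbered autosomes, which took no part, myogenic-like cells led 15.7% of members and 21.2% of shared regions with a leader. Endothelial-like cells led 1.03% and 25.1% there. The same libraries gave the clusters and the members, and the shares are given with no test.

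**Figure D5:**
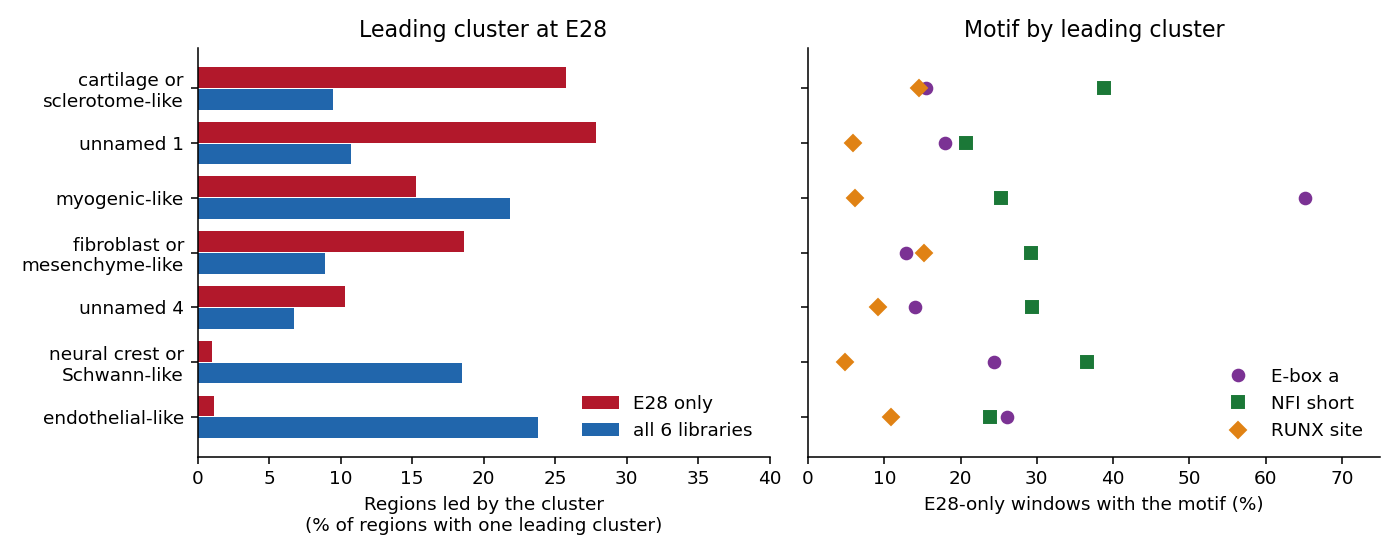
Left, percent of regions with a leading cluster that each E28 cluster led, for E28-only regions and for regions with peaks in all 6 libraries. The regions with peaks in all 6 libraries are wider and less often intronic or distal. Right, percent of E28-only windows that hold the E-box CAGCTG (E-box a), the short NFI element and the RUNX element, by leading cluster. The E-box reaches 65.2% under myogenic-like cells and stays between 12.9% and 26.1% under the others, and the NFI element reaches 38.8% under cartilage or sclerotome-like cells.

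Since members have no count at the earlier stages, the change around them was read from shared regions, whose counts exist in all 6 libraries. Counts per library were compared between stages with the edgeR quasi-likelihood test over all 78533 shared regions, with stage and breed as terms, and a region was called at an adjusted p under 0.05. The same libraries chose the members, so the neighbours are not an independent check. At E28 19% of all shared regions were called higher than at E18 and 18.1% lower. Of the 10083 with their middle within 25 kb of the middle of a member, 2420 (24.0%) were higher and 1508 (15.0%) lower. Shared regions called over a longer stretch also gain counts. With the covered length as an offset the calls were 5047 higher and 562 lower near members, beside 45.8% higher and 6.39% lower in all shared regions. Where the mean covered lengths of both stages were within 1.5 times of each other, 1357 were higher and 210 lower of 5626 near members, beside 21.8% and 4.81%. The split of higher to lower calls thus moved strongly with the covered length, and the share called higher near members lay above that of all shared regions under each of the 3 settings. Without E18 DZ 1339 of the 10083 regions near members (13.3%) were called in either direction, beside 8740 of all 78533 shared regions. Without E18 ZZ they numbered 2352 (23.3%), beside 16943 (21.6%).

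Against E21, 2.53% of all shared regions were called higher at E28 and 4.61% lower. Near members 408 of 10083 (4.05%) were higher and 379 (3.76%) lower. Without the breed term 386 (3.83%) were higher and 395 (3.92%) lower, beside 2.47% and 4.79%, so the larger side was not stable. The median log2 fold change near members was 0.0553, and 0.0753 and 0.0349 without E28 ZZ and without E28 DZ. Over all shared regions these medians were -0.00935, 0.00298 and -0.0170. With the covered length as an offset, 3442 were higher and 207 lower near members, beside 30.2% and 2.26% of all shared regions. Among regions with covered lengths within 1.5 times, 245 were higher and 38 lower of 6979, beside 2.35% and 0.667%. With either E21 library left out the edgeR fit called 0 of all 78533 shared regions, those near members included. There were 1907 and 1888 near members at an unadjusted p under 0.05, beside 13603 and 13561 of all 78533, and in those fits the lone E21 library is assumed to vary like the other stages. DESeq2 on all 6 libraries called 2106 near members (20.9%), beside 19.7% of all shared regions.

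With all 6 libraries in the fit, promoters of the nearest genes were not called higher at E28 more often than all promoters. A shared promoter region of a gene nearest to a member was called higher at E28 than at E18 in 777 of 3690 cases (21.1%) and lower in 649 (17.6%), beside 23.6% and 16.8% of all 14974 shared promoter regions. Against E21 29 (0.786%) were higher and 86 (2.33%) lower, beside 0.982% and 2.30%. Without E18 DZ 250 of these promoter regions (6.78%) were called against E18, beside 7.58% of all shared promoter regions. Without E18 ZZ, E21 ZZ or E21 DZ the calls numbered 779 (21.1%), 852 (23.1%) and 869 (23.6%), beside 23.2%, 25.7% and 25.8%. Genes nearest to at least 3 members had 161 higher (20.7%) and 138 lower (17.7%) of 778 against E18. Against E21 these genes had 11 higher (1.41%) and 24 lower (3.08%), both above the 0.982% and 2.30% of all promoters. With the covered length as an offset 45.6% were higher than at E18 and 7.02% lower, beside 51.7% and 5.52% of all promoters, and against E21 27.7% were higher beside 34.2%. With covered lengths within 1.5 times the shares against E18 were 24.2% and 10.4%, beside 28.7% and 8.15%. Without E28 ZZ the split against E18 turned, with 695 higher (18.8%) and 807 lower (21.9%), while of all promoters 22.5% were higher and 19.7% lower. The share called higher than at E18 was below that of all promoters in these settings, but without E18 DZ both were almost equal. In that fit the median log2 fold change was 0.0467 at these promoters and 0.0705 at all promoters.

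Single neighbours changed by large amounts. The largest rise from E18 within 25 kb of a member, among regions with like covered lengths, was in a distal region nearest to NFIB at chr1:208472680-208474490, 2459 bp from a member. In ZZ its level rose from 2.41 CPM at E18 through 7.38 at E21 to 29.0 at E28, and in DZ it was 2.54, 9.70 and 32.3 CPM. The stages did not overlap, and the log2 fold change was 3.58 ± 0.20 (SE, edgeR adjusted p = 0.00234). The member beside it was open in 1.21% of ZZ and 0.952% of DZ barcodes. A distal region nearest to LOC106508653 had 4.04 and 3.38 CPM at E18 and 39.2 and 47.7 at E28, a log2 fold change of 3.49 ± 0.23. Regions near CDH11, a cadherin of mesenchymal cells, and ARHGAP8 and TRIL followed with 3.14, 3.18 and 3.13. For these 5 the adjusted p stayed at or below 0.0199 whichever library was left out.

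Falls beside a member were also seen. An intronic region nearest to HEY2, a repressor in Notch signalling, had 22.0, 21.9 and 7.63 CPM in ZZ at the successive stages and 25.9, 16.9 and 6.55 CPM in DZ, while a member 5321 bp away was open in 1.32% of ZZ and 0.360% of DZ barcodes at E28. Its log2 fold change from E18 was -1.81 ± 0.19 (edgeR adjusted p = 0.00312). A distal region near LNX1 fell by 2.16 on the log2 scale and an intronic region of FRY by 1.96. Falls near A4GALT and LOC102164773 had adjusted p of 0.0539 and 0.0608 without E18 DZ. Against E21 the largest rises were in regions nearest to TIMP3, an inhibitor of matrix proteases (3.20 and 2.61 CPM at E21, 18.3 and 20.5 at E28, log2 fold change 2.74 ± 0.34, edgeR adjusted p = 0.0249), NLN, ZPLD1, CMSS1 and MARCKS. The largest falls were near KCNK3, FRY, MPDZ, HEY2 and FBN2. None of these 10 passed the threshold without an E21 library, where the highest adjusted p was 0.228 or 0.229.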

How the data were processed

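Single-cell ATAC-seq had been run on 6 libraries. The deposited values are raw counts of Tn5 cut sites per peak and barcode, which the authors made with Cell Ranger ATAC on Sscrofa11.1, with peaks called in each library and without a score. Seurat 3.1.1 and Signac 0.2.2 are named in the submitters' processing notes. Barcodes with 2000 to 30000 counts were kept, and no doublet caller was run. Elements and starts came from RefSeq Annotation Release 106. Counts of kept barcodes were summed per library and tested with edgeR 4.0.16 in R 4.3.3 (TMM, filterByExpr, stage and breed, Benjamini-Hochberg over all shared regions), and DESeq2 1.42.0 was an alternative. Barcodes were clustered with scikit-learn 1.9.0 and leidenalg 0.10.2 (50 LSI components less the first, resolution 0.3), and intervals with scipy 1.17.1. A cluster was named where at least 3 marker windows of a list had a log2 fold over 0.5 in both libraries.

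Named were the 10 most open members by the lower share, the 10 genes nearest to the most members, up to 3 genes per list, 5 members per leading cluster, the 5 largest rises and falls beside members, and 5 regions on each side of the threshold. Genes with the most members within a list, and single genes without members, were named after their values were seen. The members and lists were chosen with earlier results of these data known. The test code was tested on simulated data. Alternatives covered overlap, barcode limits, covered length, scaling, tool, resolution, window and each library left out.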

Additional observations from a re-analysis of the deposited data

How the results depend on the processing

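The number of E28-only regions was 12559 with a reciprocal overlap of 50%, and ran from 6695 to 18381 with a library left out, the largest being 18381 without E28 ZZ, 10644 without E21 DZ and 10460 without E28 DZ. The intronic or distal percent was 92.9% with promoters of 500 bp, 93.7% with protein-coding genes only, 85.1% with a reciprocal overlap of 50%, 89.7% with peaks kept only above an open share of 1% and 91.6 to 93.0% with a library left out. The median distance was 49726 bp to starts of all RefSeq genes and 48127 bp with a reciprocal overlap of 50%. The median open share in ZZ was 0.895% with barcodes of 4000 to 60000 counts and 0.745% with all barcodes, and in DZ 1.39% with the former. Regions with a single leading cluster made 61.3% at resolution 0.6 and 52.3% at 1.0, and the leading clusters and their order changed with it. With a library left out, calls near members against E18 ran from 1339 (without E18 DZ; 2352 without E18 ZZ) to 4098 (40.6%, beside 39.3% of all shared regions, without E28 ZZ), and at promoters from 250 (without E18 DZ; 779, 852 and 869 without E18 ZZ, E21 ZZ and E21 DZ) to 1502 (40.7%, beside 42.2% of all promoters, without E28 ZZ). Against E21, calls near members numbered 283 (4.06%) with covered lengths within 1.5 times, 2106 (20.9%) by DESeq2 and 3649 (36.2%) with covered length as an offset, beside 3.01%, 19.7% and 32.4% of all shared regions, and with a library left out ran from 0 (without either E21 library) to 2177 (21.6%, beside 20.6%, without E28 ZZ). At promoters they numbered 51 (1.58%), 545 (14.8%) and 1075 (29.1%), beside 1.60%, 16.2% and 35.3% of all promoters, and with a library left out ran from 0 to 613 (16.6%, beside 17.3%, without E28 ZZ). Of 287 alternative results, 173 stayed within the limits set for them. The causes were not tested. Of 28 motifs, 9 changed side of the all-region share under a window or GC alternative, among them the E-box CAGCTG over all members. The motif shares in intronic and distal regions only, and in members over 1 kb from another peak, and the placement by peak matching and open share, were chosen after seeing the data. Intervals cover counting error, and with 1 library per stage and breed no spread within a group was measured. The labels share no replicate numbers beyond 1 library per breed at each stage, and the breed term compared stages within breed. Without that term the calls near members numbered 3947 (39.1%, beside 37.4% of all shared regions) against E18 and 781 (7.75%, beside 7.26%) against E21.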
